A study of Equus caballus with 8 samples.

Results

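The genes studied were 10 of the fat-cell programme in mesenchymal stem cells cultured from equine bone marrow (BM-MSCs), the transcription factors PPARG, CEBPA, CEBPB, CEBPD and KLF15, the lipid-handling genes LPL, FABP4, CD36 and PLIN2, and ZFP36L1, which encodes an RNA-binding protein. They were chosen by gene symbol. Of the 10 symbols, 9 named a row among the 15266 named rows of the table of normalized counts. FABP4 had no row under its symbol, but the row LOC100057425 carries the gene ID that NCBI RefSeq (assembly TB-T2T) names FABP4, and its values are given apart from those of the 9. That match was made after the table was seen.

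Marrow of 4 horses was used, each named by a letter (D, J, L or W). The marrow of each horse was divided between medium without added TGF-β2 (untreated) and medium with 1 ng/ml recombinant human TGF-β2 from isolation until passage 3 or 4 by the labels, or for 3 passages by the study's methods, which gave 4 untreated and 4 TGF-β2-treated libraries. All cultures were in low-glucose DMEM with fetal bovine serum, and the study's methods add basic fibroblast growth factor. The study's horses were adult Thoroughbreds or Thoroughbred crosses, and no adipogenic inducer is named for these cultures. Adherent marrow cultures can hold blood cells, and in bulk RNA fewer cells of a type and less RNA per cell cannot be told apart.

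PPARG is the nuclear receptor at the centre of fat-cell formation, and it binds DNA together with RXRA. In the textbook sequence CEBPB and CEBPD act early and lead to PPARG and CEBPA, which then sustain each other and turn on the genes of lipid uptake and storage. Marrow stromal cells can become fat cells or bone cells, and TGF-β is known as an inhibitor of the fat-cell course.

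Between 39184554 and 57228675 reads were counted per library, and 3 reads, taken as the lower limit of detection, were worth between 2.02 and 3.60 normalized counts. That limit covers counting error only. A normalized count is the reads of a gene divided by a size factor of the library, not by transcript length, so levels are compared between libraries and never between genes. Fold changes are differences of log2(normalized count + 1), treated minus untreated, and this scale understates changes of low genes. The change of a horse contains its untreated level, so its size and that level are tied by construction. They were tested with limma with the horse as a block, and adjusted p values are Benjamini-Hochberg values over all 14907 genes that reached 10 normalized counts in 4 or more of the 8 libraries. A gene was called differentially expressed where its adjusted p was below 0.05 and its log2 fold change exceeded 1 in either direction.

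The surface markers of cultured MSCs, ITGB1, CD44, THY1, ENG and NT5E, were read in all 8 libraries, with a summed level of 138766 to 309522 normalized counts in untreated and 150975 to 250162 in treated libraries. THY1 was called lower with TGF-β2, at a log2 fold change of -2.21 (adjusted p = 0.00203 from limma). PTPRC (CD45) and ITGAL (part of LFA-1), which mark leukocytes, had 1.19 to 109.7 and 20.4 to 53.9 normalized counts. Among genes known to rise with TGF-β signalling, TGFBI and SKIL were called higher. SMAD7 and LTBP2, named after their values were seen, were not called, at log2 fold changes of 0.02 and -0.13 (adjusted p = 0.931 and 0.653 from limma).

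CEBPA and KLF15, 2 of the 9 genes found by symbol, were called lower in the treated libraries and 0 were called higher by limma, with 0 at an unadjusted p under 0.05 in that direction by limma and 0 calls by DESeq2 or edgeR. Of all genes tested, 14.1% were called, 6.83% higher and 7.31% lower. By adjusted p alone 4 of the 9 were lower, CEBPA, CEBPB, LPL and KLF15, where 30.9% of all genes passed, 15.7% higher and 15.3% lower. The same 4 were lower in all 4 horses, and 51.9% of all genes moved in 1 direction in all 4. The groups did not overlap for 2 of the 9, CEBPA and CEBPB, against 27.8% of all genes. FABP4, read as LOC100057425, was also called lower. The median log2 fold change of the 9 genes was -0.69 against 0.01 for all genes tested. PPARG, CEBPD, CD36, PLIN2 and ZFP36L1 were not called, and these 5 genes moved in both directions between horses.

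**Figure D1:**
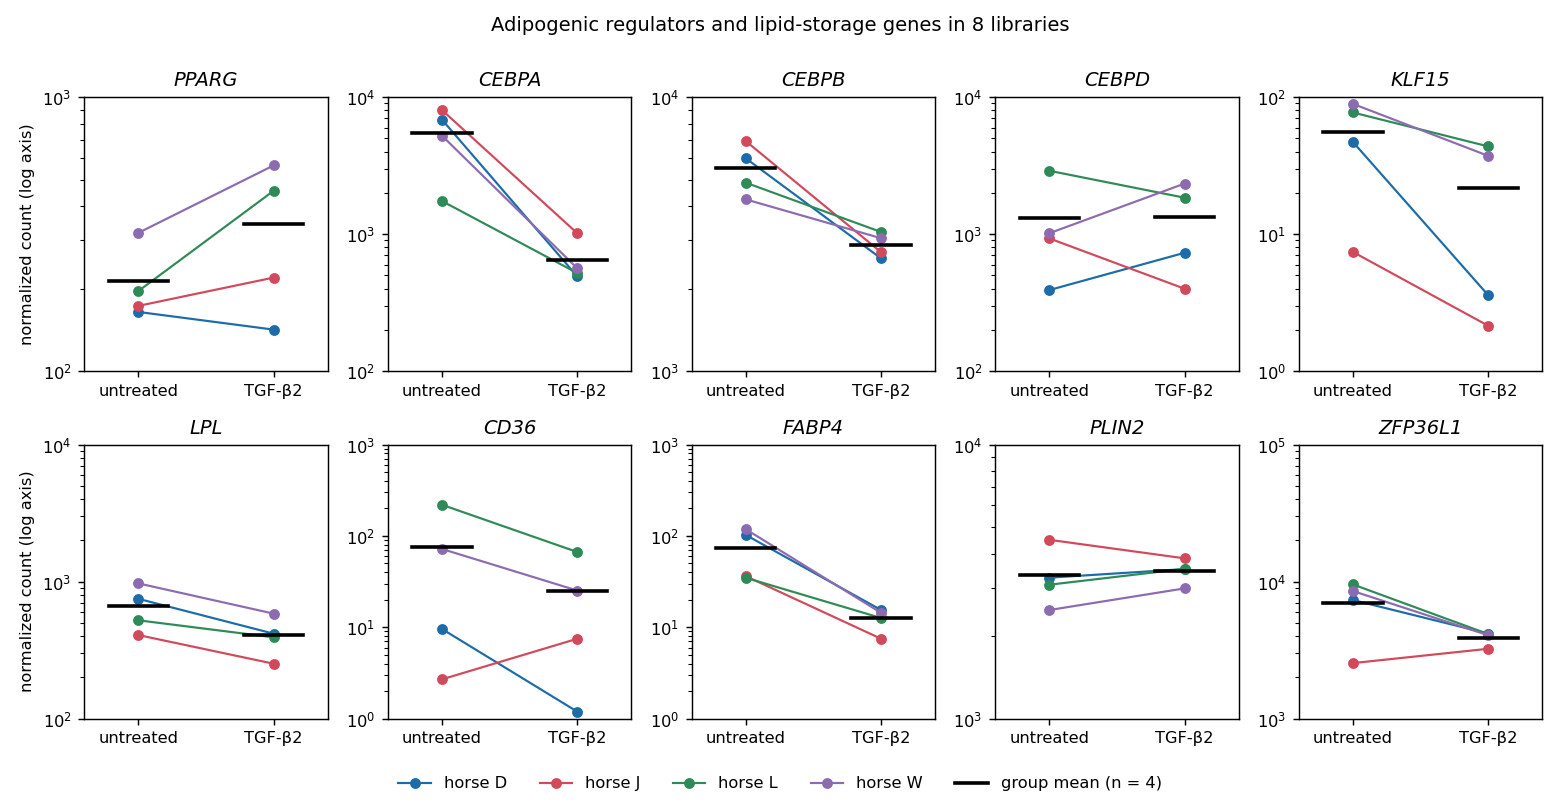
Normalized counts (log axis) of the 10 genes in untreated and TGF-β2-treated libraries, with 1 line per horse and a black bar for the group mean (n = 4). CEBPA, CEBPB and FABP4 had no overlap between the groups, whereas the lines of CEBPD cross.

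PPARG was read at 164 normalized counts in horse D, 173 in J, 196 in L and 320 in W without treatment. With TGF-β2 it had 142 in D, 219 in J, 455 in L and 563 in W. The groups overlapped, and horses L and W held the highest treated values. PPARG was higher in 3 of 4 horses, with changes from -0.21 in horse D to 1.21 in horse L. The mean change was 0.54 on the log2 scale (standard error 0.26, 95% interval from -0.10 to 1.18, adjusted p = 0.162 from limma). The fold between the highest and the lowest library was 1.94 among untreated and 3.98 among treated libraries. The interval held both 0 and values past the fold threshold.

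CEBPA encodes C/EBPα, the factor that works with PPARG to keep the fat-cell state. It had 6847 normalized counts in horse D, 8046 in J, 1744 in L and 5228 in W without treatment. The treated libraries held 491 in D, 1014 in J, 520 in L and 562 in W. Every treated library lay below every untreated one, which held for 13.9% of all genes tested. The means were 5466 ± 2737 and 647 ± 247 normalized counts (SD, n = 4). On the log2 scale this was -2.94, or 7.66-fold lower (standard error 0.32, adjusted p = 0.00390 from limma). The decrease was least in horse L, at -1.75, whose untreated library was also the lowest, and greatest in horse D, at -3.80.

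CEBPB, an early C/EBP factor that also acts in inflammatory responses, had 5985, 6915, 4874 and 4236 normalized counts in the untreated libraries of horses D, J, L and W. The treated libraries held 2580, 2718, 3220 and 3056 in the same order. The groups did not overlap, and all 4 horses were lower. On the log2 scale the change was -0.91, or 1.88-fold lower (standard error 0.17, adjusted p = 0.0161 from limma), past the adjusted p but short of the fold threshold. The horses with the most CEBPB without treatment, J and D, had the larger changes, -1.35 and -1.21, and L and W had -0.60 and -0.47. Such an order can follow from the calculation, since each change contains the untreated level. With each library scaled to its total, which lowers the median of all genes to -0.30, the log2 fold change was -1.22 (adjusted p = 0.00380) and CEBPB was called. It was also called without horse L (-1.01, adjusted p = 0.0332) or W (-1.05, 0.0436), while without horse D the adjusted p was 0.0774.

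CEBPD, the other early factor, behaved differently from horse to horse. It had 391 normalized counts in horse D, 930 in J, 2901 in L and 1016 in W without treatment, and 731, 399, 1844 and 2340 with it. Horses D and W were higher with TGF-β2, by 0.90 and 1.204 on the log2 scale, and horses J and L lower, by changes of -1.22 and -0.65. The mean log2 fold change was 0.06 with a 95% interval from -1.03 to 1.15 (adjusted p = 0.931 from limma), and the SD of the change over the 4 horses was 1.18. With 1 library per horse and condition, whether horses differed in their response could not be tested.

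KLF15, a Krüppel-like factor known to act upstream of PPARG and in lipid and amino acid metabolism, had few reads. Its untreated libraries held 47.0 normalized counts in horse D, 7.41 in J, 77.3 in L and 89.3 in W. The treated ones held 3.57, 2.14, 43.7 and 37.2, of which the first and second rest on 3 and 2 reads, at or under the floor. All 4 horses were lower, from -3.39 in D to -0.81 in L, although the groups overlapped because horse J was low throughout. The log2 fold change was -1.71 (standard error 0.47, adjusted p = 0.0434 from limma). The call was lost without the block (adjusted p = 0.299), with edgeR (0.0543) and with any single horse left out (0.0529 to 0.124), so it lay at the edge of the threshold.

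**Figure D2:**
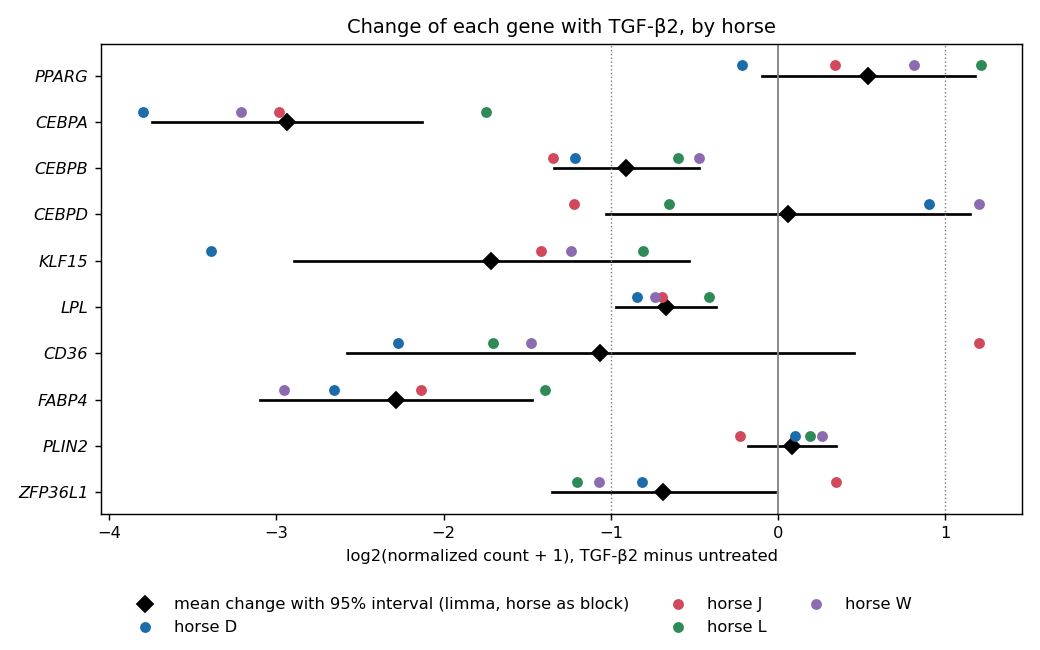
Change of each gene on the log2(normalized count + 1) scale, treated minus untreated, with coloured points for the 4 horses and black diamonds with bars for the mean and its 95% interval from limma with the horse as a block. Dotted lines mark the fold threshold; the intervals of CEBPA and FABP4 lie wholly beyond it.

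Among the lipid-handling genes, LPL encodes lipoprotein lipase, which frees fatty acids from circulating triglycerides. It had 749 normalized counts in horse D, 407 in J, 522 in L and 971 in W without treatment, and 417, 252, 392 and 584 with TGF-β2. The horses kept the same order in both groups, and the groups overlapped while every horse was lower. Changes ran from -0.84 to -0.41, with the smallest SD over horses of the 10 genes, 0.18. The log2 fold change of -0.67, or 1.59-fold lower, was past the adjusted p and short of the fold threshold (standard error 0.12, adjusted p = 0.0133 from limma). The adjusted p was 0.180 without the block, 0.0741 without horse D and 0.0778 without W.

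FABP4 carries fatty acids inside fat cells, macrophages and endothelial cells. Read as LOC100057425, it had 102.7 normalized counts in horse D, 36.4 in J, 34.9 in L and 119 in W without treatment, and 15.5, 7.49, 12.6 and 14.4 with TGF-β2, the treated values resting on 7 to 13 reads per library. No treated library reached the lowest untreated one. The log2 fold change was -2.29, or 4.87-fold lower (standard error 0.33, adjusted p = 0.00728 from limma), with changes from -2.96 to -1.39. FABP4 was called with any single horse left out, and its log2 fold change was -2.39 without both L and W.

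CD36, a scavenger receptor and fatty acid transporter of fat cells, macrophages and endothelium, was read mainly in 2 horses. Its untreated libraries held 9.57 normalized counts in horse D, 2.69 in J, 220 in L and 72.0 in W, and its treated libraries 1.19, 7.49, 66.7 and 25.2. Horses D and J had at most 11 reads in any library. Its mean change was -1.06 on the log2 scale, with a 95% interval from -2.58 to 0.45 (adjusted p = 0.233 from limma), lower in 3 of 4 horses and higher in horse J. Without horse J, the only horse with an increase, it was -1.82 (adjusted p = 0.00973 from limma), and CD36 was called. Leaving out D, L or W instead gave -0.66, -0.85 and -0.92. CD36 was not called in these fits (adjusted p = 0.548, 0.465 and 0.463 from limma).

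Of 11 macrophage markers listed, 9 had a row, and 4 of the 9 were lower in all 4 horses. For comparison, 51.9% of all genes tested moved in 1 direction in all 4. The direction of SPI1 in horses D and J, and of PTPRC in D, rests on at most 2 reads per library. Only 6 of the 9 were tested, and 1, MRC1, was called lower, against 7.31% of all genes. The highest library was the untreated one of horse L or W for 6 of the 9, as for CD36, and that of horse J for the other 3, CD68, PTPRC and CD74, where CD36 had 2.69 normalized counts. CSF1R, the receptor for macrophage colony-stimulating factor, had 147 and 62.9 normalized counts in the untreated and 34.5 and 20.4 in the treated libraries of horses L and W, and at most 7.83 in those of D and J. MRC1, the mannose receptor, had 181 and 101.5 in the untreated and 32.2 and 13.2 in the treated libraries of L and W, and at most 7.83 in those of D and J. SPI1, the myeloid transcription factor PU.1, CD163 and TYROBP had no read in the treated library of horse D, and CD163 none in the untreated library of J. The summed level of the 9 markers was 506 to 31191 normalized counts in untreated and 385 to 738 in treated libraries. The highest sum came from the untreated library of horse J, where CD74, which also serves MHC class II antigen presentation, took 28616. Without CD74 the sum in that library was 2575, still the highest of the 8. CD68 had 2437 normalized counts there against 740 in L and 659 in W, and PTPRC 109.7 against 41.5 and 26.4. The part of these cells in the result for CD36, or in those for LPL and FABP4, was not tested.

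**Figure D3:**
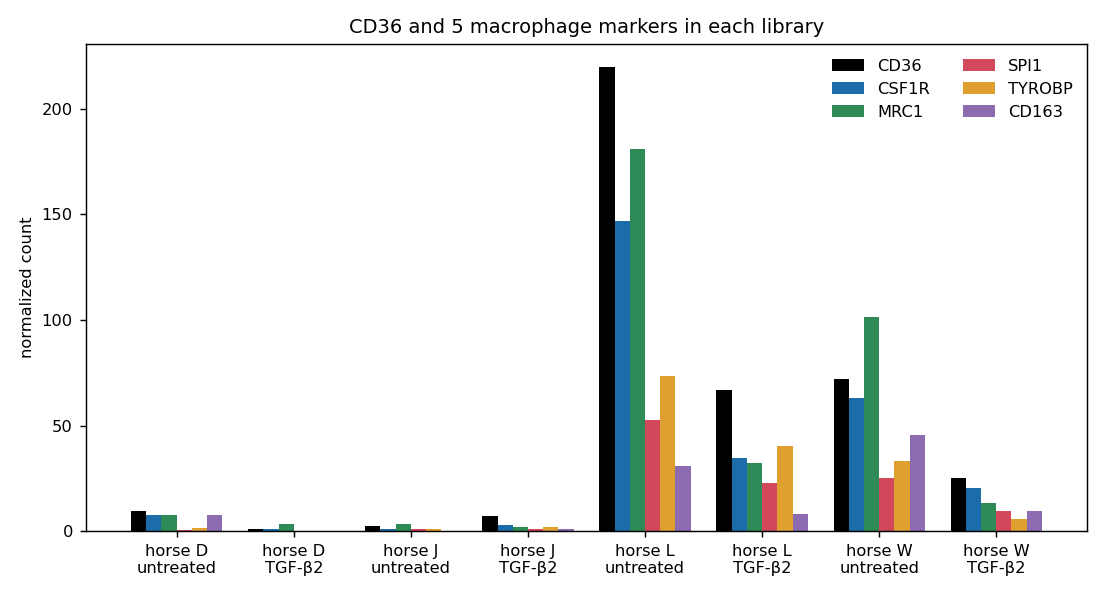
Normalized counts of CD36 and of the macrophage markers CSF1R, MRC1, SPI1, TYROBP and CD163 in each of the 8 libraries. Bars of one gene may be compared between libraries, not bars of different genes; CD36 and these 5 markers were highest in the untreated library of horse L or W, whereas CD68, PTPRC and CD74, not plotted, were highest in that of horse J.

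Among endothelial markers 3 of 9 had a row. KDR and ERG were called higher, against 6.83% of all genes, and CDH5 was not called. KDR had 1 to 38 reads per library and passed the filter only with its treated libraries. The summed level was 32.5 to 395 normalized counts in untreated and 501 to 966 in treated libraries, most of it from ERG, which other mesenchymal cells also express. CDH5, the defining cadherin of endothelium, had at most 23.8 normalized counts. The part of endothelial cells in the result for FABP4 was not tested.

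PLIN2, which coats lipid droplets in nearly all cell types, had 3269, 4494, 3081 and 2491 normalized counts in the untreated libraries of horses D, J, L and W and 3514, 3846, 3522 and 2988 in the treated ones. The groups overlapped and the horses differed more than the treatments. PLIN2 differed by 0.08 on the log2 scale, with a 95% interval from -0.18 to 0.35 (adjusted p = 0.576 from limma). A change as large as the fold threshold lay outside this interval. Under total scaling, which moved the median of all genes from 0.01 to -0.30, the value for PLIN2 was -0.23.

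ZFP36L1 encodes a zinc-finger protein that binds AU-rich elements in messenger RNAs and speeds their decay. It had 7338 normalized counts in horse D, 2543 in J, 9531 in L and 8531 in W without treatment, and 4175, 3235, 4137 and 4058 with TGF-β2. The untreated libraries spread over 3.75-fold and the treated ones over 1.29-fold. Horses D, L and W were lower, by changes of -0.81, -1.20 and -1.07, and horse J was higher by 0.35, from the lowest untreated level. Over the 4 horses the change was -0.69 on the log2 scale, with a 95% interval from -1.35 to -0.02 (adjusted p = 0.105 from limma). Without horse J, the only horse with an increase, it was -1.03 (adjusted p = 0.00292 from limma), and ZFP36L1 was called. Leaving out D, L or W instead gave -0.64, -0.51 and -0.56. ZFP36L1 was not called in these fits (adjusted p = 0.273, 0.280 and 0.308 from limma). DESeq2 with the horse as a term gave an adjusted p of 0.0459, short of the fold threshold.

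Both relatives of ZFP36L1 were downregulated in all 4 horses. ZFP36 (tristetraprolin) had 2652 to 3842 normalized counts in untreated and 485 to 704 in treated libraries, a log2 fold change of -2.44 (adjusted p = 0.0010003 from limma). ZFP36L2 had 7566 to 11973 and 990 to 2019, a log2 fold change of -2.95 (adjusted p = 0.00135 from limma). The 3 paralogs are distinct genes, and how uniquely aligned reads were shared between their similar zinc fingers was not tested. The other 5 AU-rich element binding proteins tested were not called, 1 of them passing the adjusted p alone.

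Between horses, the log2 SD was smaller among treated than among untreated libraries in 7 of the 10 genes. The exceptions were PPARG (0.92 against 0.44), KLF15 (2.005 against 1.58) and CEBPD (1.18 in both). The share over all genes tested was not computed, so whether 7 of 10 is unusual is not known.

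Of the other genes listed as drivers of fat-cell formation, 23 were tested. Of these, 6 were called lower and 1 higher, against 7.31% and 6.83% of all genes. By adjusted p alone 12 were lower and 2 higher, against 15.3% and 15.7% of all genes. The median log2 fold change of the 23 was -0.55. RXRA, the DNA-binding partner of PPARG, had 4650 to 6024 normalized counts in untreated and 2339 to 2580 in treated libraries, a log2 fold change of -1.06 (adjusted p = 0.00210 from limma). KLF4 and KLF5, Krüppel-like factors known to act early, had log2 fold changes of -1.38 and -1.11 (adjusted p = 0.00403 and 0.0220 from limma). ZNF423, which marks committed preadipocytes, and EBF3 were also called, at -1.07 and -1.09, but not without the block (adjusted p = 0.111 and 0.0866). EBF1 was lower by -0.92 on the log2 scale, short of the fold threshold (adjusted p = 0.0377 from limma), and EBF2 was at -1.91 without passing (adjusted p = 0.0670). CREB5 was the gene called higher, at 1.19, and this was lost without the block (adjusted p = 0.0944). SREBF1, which governs fatty acid synthesis, had a log2 fold change of -0.55 (adjusted p = 0.0404 from limma, 0.150 without the block).

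Among 24 genes known to hold back fat-cell formation, 5 were called higher and 3 lower, against 6.83% and 7.31% of all genes. The median log2 fold change of the 24 was 0.04. INHBA, an activin subunit, went from 2378 to 5417 normalized counts in untreated to 38782 to 76170 in treated libraries, a log2 fold change of 3.86 (adjusted p = 7.87e-04 from limma). RUNX1T1, HES1 and SOX9 had log2 fold changes of 1.86, 1.21 and 1.21. SMAD3, which carries the TGF-β signal to the nucleus, and TWIST1 were called lower, at -2.51 and -2.47. GATA2 and RUNX2 did not pass, at 0.35 and -0.27 on the log2 scale. The list thus had called genes in both directions.

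Genes of lipid uptake, carriage and activation other than LPL, CD36 and FABP4 gave 4 called higher and 3 lower of 20 tested. Of all genes, 6.83% were called higher and 7.31% lower. FABP3, the heart fatty acid-binding protein, had 473 to 1009 normalized counts in untreated and 2401 to 5111 in treated libraries, a log2 fold change of 2.21 (adjusted p = 0.00173 from limma). It was higher where FABP4 was lower, in all 4 horses. FABP5 was not called, at 1.10 (adjusted p = 0.0762). ANGPTL4, a secreted inhibitor of lipoprotein lipase and a known PPAR target, had 2722 to 8836 normalized counts in untreated and 1589 to 3168 in treated libraries, a log2 fold change of -1.49 (adjusted p = 0.00613 from limma). LIPG, endothelial lipase, was called higher at 1.91, and ACSL5 and CAV1 lower at -1.58 and -1.28. Without the block LIPG and ACSL5 were not called (adjusted p = 0.0556 and 0.0724).

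**Figure D4:**
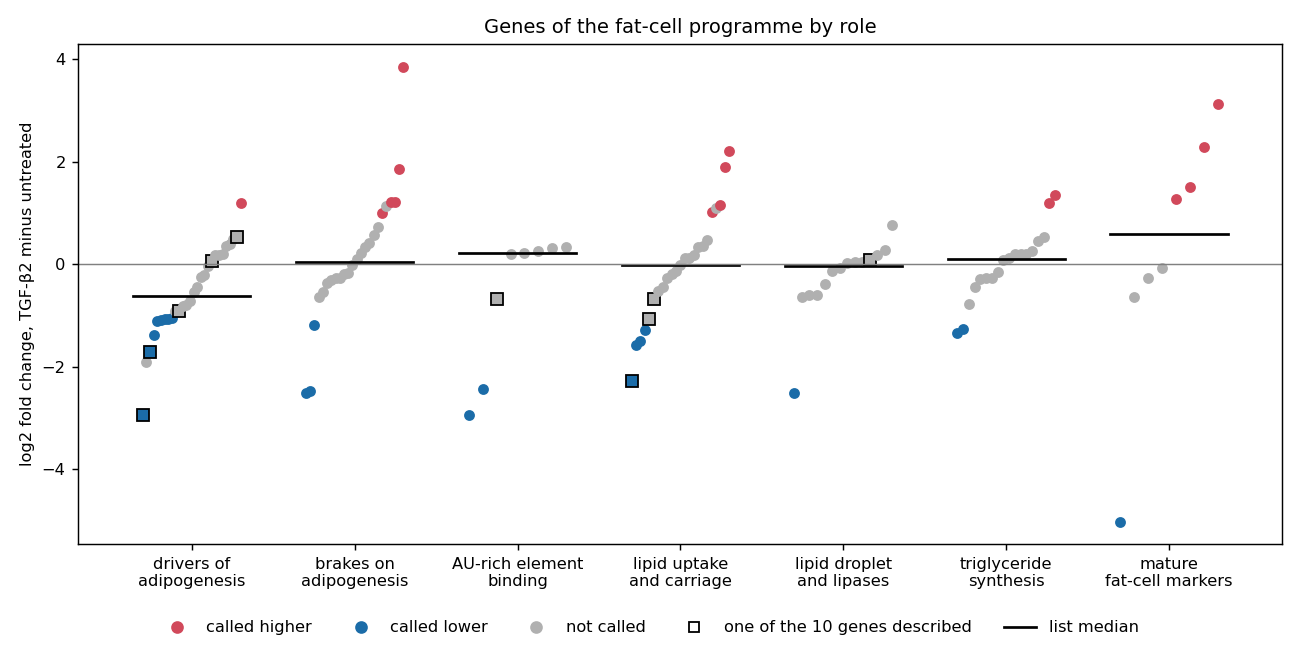
Log2 fold change, treated minus untreated, of every tested gene in 7 lists of the fat-cell programme, with called genes in red or blue and the list median as a line. The drivers lie mostly below 0, with a median of -0.63 when their 5 members described above are included.

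Lipid droplet proteins and lipases other than PLIN2 gave 1 call among 13 tested genes, against 14.1% of all genes. MGLL, monoacylglycerol lipase, had 4768, 4852, 14540 and 3514 normalized counts in the untreated libraries of horses D, J, L and W and 529, 2634, 1199 and 657 in the treated ones, a log2 fold change of -2.52 (adjusted p = 0.0125 from limma). The main triglyceride lipase PNPLA2 and the droplet protein PLIN3 had log2 fold changes of 0.02 and 0.18 (adjusted p = 0.944 and 0.191). LIPE, hormone-sensitive lipase, was at -0.64 (adjusted p = 0.142). Of 18 tested genes listed under triglyceride synthesis, PCK2 and AGPAT4 were called higher, at 1.34 and 1.19. MOGAT1 and GPD1L were called lower, at -1.33 and -1.26. The groups overlapped for PCK2, with 1790 to 6047 normalized counts in untreated and 5392.5 to 8047 in treated libraries. Of all genes, 6.83% were called higher and 7.31% lower.

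Markers of mature fat cells did not move together. ADIPOQ, which encodes adiponectin, had 25.2, 6.73, 4.71 and 17.2 normalized counts in the untreated libraries of horses D, J, L and W and 167, 106, 144 and 45.7 in the treated ones. It was higher in all 4 horses without overlap, with a log2 fold change of 3.12 (adjusted p = 0.0133 from limma). UCP1, ADRB3 and SLC2A4 were also called higher, at 2.29, 1.27 and 1.503, SLC2A4 from at most 22 reads in any library. SLC2A4 had 4.06 to 8.75 normalized counts in untreated libraries, so it passed the filter through the treated group alone. ADIPOQ, and UCP1 with 8.08 to 21.7 in untreated libraries, passed it only with their treated libraries. Fewer than 4 of their untreated libraries reached 10 normalized counts. That these 3 genes were tested thus depended on the group in which they were high. CFD, which encodes adipsin, had 20.7 to 68.0 normalized counts in untreated libraries. It had no read in 3 treated libraries and 1 read in that of horse W (adjusted p = 0.00135 from limma). CFD passed the filter through the untreated group alone. Of 15 markers listed, 8 had a row and were tested. Of these 8, 4 were called higher and 1 lower, with LIPE, GPD1 and CIDEA not called. Of all genes, 6.83% were called higher and 7.31% lower. LEP, PLIN1, CIDEC, DLK1 and LEPR had no row and were not analysed here. No named row held fewer than 81 reads summed over the 8 libraries. A missing row can thus mean few reads, or a row under another name.

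**Figure D5:**
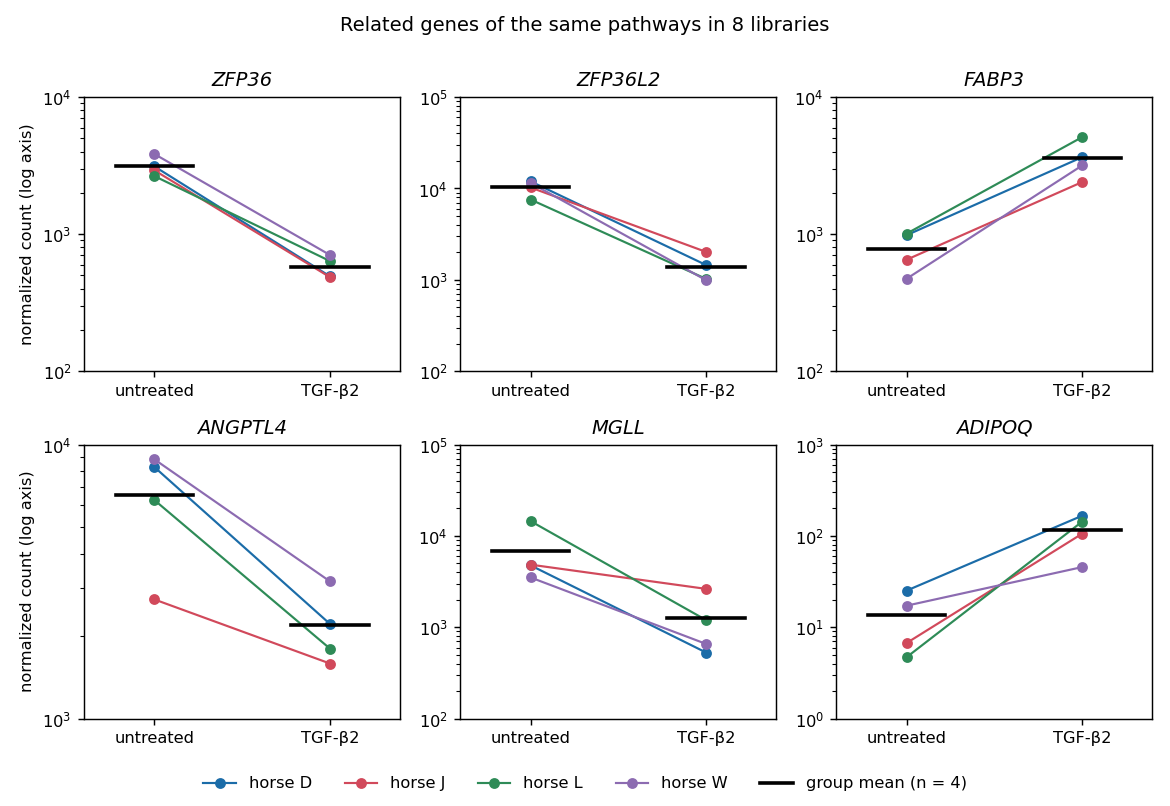
Normalized counts (log axis) of 6 related genes in untreated and TGF-β2-treated libraries, with 1 line per horse and a black bar for the group mean (n = 4). ZFP36, ZFP36L2, ANGPTL4 and MGLL were lower in all 4 horses, and FABP3 and ADIPOQ higher.

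The genes whose pattern over the 8 libraries was most like that of a given gene were sought by Pearson's r of log2(normalized count + 1), as a description over libraries that share horses and treatment. For PPARG these were HOXA10, AP2A1 and HOXA9, each with an r of 0.935. For LPL they were DHX32, LOC100061153 and ASAP3 (r from 0.969 to 0.979), and for CEBPB TMEM203, DENND1A and LOC111775967 (0.981 to 0.990). After the group means were subtracted, LOC102149554 was nearest to PPARG, with an r of 0.985. DPP6 and LOC100052954, the row whose gene ID RefSeq names STAT5B, were nearest to LPL, with r of 0.998 and 0.994. CLPP and GET4 were nearest to CEBPB, both with 0.975. All these genes were picked as the highest among all genes tested, so a high r can arise from selection alone.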

How the data were processed

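Poly(A) RNA-seq libraries of 4 horses, each with an untreated and a treated culture, were compared. Per the labels and methods, the authors used Trimmomatic 0.36 for trimming and STAR 2.5.2b for alignment (EquCab 3.0), counted unique hits per gene with featureCounts (Subread 1.5.2) and used DESeq2. The deposited values are normalized counts, a signal of gene counts divided by 1 size factor per library. Dividing each value by the library's step gave whole reads for 100% of values (within 0.001 of a read, in proportion above 1000 reads). A row without a gene name, 0.0281% to 0.0531% of reads, was left out.

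The main test was limma 3.58.1 (R 4.3.3, intensity trend) on log2(normalized count + 1) with the horse as a block, since each horse's marrow was split between both arms. Same-horse libraries deviated from their group means together (r from 0.386 to 0.609 across genes). Alternatives were no replicate block, DESeq2 1.42.0, edgeR 4.0.16, other pseudocounts, filters and scalings, and leaving out each horse. The limma fits and the DESeq2 and edgeR fits with the horse were tested on simulated data. Whether the 2 cultures of a horse were run as separate batches is not given in the sources used here.

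The genes, lists and thresholds were chosen with earlier results of these data known. Named were all 10 genes, a fixed set of related genes, up to 6 called genes per list, and, for PPARG, LPL and CEBPB, the 3 most alike genes. No sequence or coordinate is given, since none of the files' build was used here.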

Additional observations from a re-analysis of the deposited data

Results flagged for a closer look

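Among 110 groups of 4 libraries, 8 had a highest or lowest library set apart from the other 3 by more than Dixon's 95% critical value for the gap over the range, where chance gives about 1 in 20. Of these, 2 belonged to the genes described first. The treated library of horse J had 1014 normalized counts of CEBPA against 562 in the next, and 3235 of ZFP36L1 against 4058 in the next.

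In untreated libraries, horse L stood apart with 14540 normalized counts of MGLL and 6047 of PCK2. In treated libraries, horse W stood apart with 22.8 of MOGAT1 and with 1.201 of CFD, the latter a single read. The treated library of horse D had 586 of GPD1L and that of horse J 3701 of SKIL. Each of these calls compares all 4 horses, and no cause was tested.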

How the results depend on the processing

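With the horse as a block 2108 of all genes, 2 of the 9 genes found by symbol and 37 of the list genes were called. Of the 9, 1 was called with no replicate block, DESeq2 without the horse, edgeR, no trend, a filter at 50 normalized counts (which KLF15, CD36 and FABP4 did not pass) or an adjusted p under 0.01, in each case CEBPA, and 4 by adjusted p alone. An adjusted p under 0.01 left 1116 of all genes and 20 list genes, and adjusted p alone gave 4610 and 58. Leaving out 1 horse gave 1080 (without W) to 2442 (without J) of all genes, 1173 without D, 1 to 3 of the 9, and 18 (without D) to 39 list genes, 20 without W. Without horses L and W, chosen after the data were seen, limma called 0 of all genes, 0 of the 9 and 0 list genes, with 3437, 4 and 48 at an unadjusted p under 0.05; no other tool was run on 2 horses. The fold of CEBPA there was -3.39 (adjusted p = 0.0531).

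CEBPD, never called, reversed to -0.25 under total scaling, -0.22 without D, -0.32 without W and -0.16 without L and W, with 0.48 without J as its highest value on leaving out 1 horse, and PLIN2 to -0.23 and -0.060 under total scaling and without L and W. Total scaling moved the median gene from 0.01 to -0.30, the share of calls that were higher from 48.3% to 27.6%, and the number of list genes called higher from 16 to 8. PPARG kept its direction and was not called under any of 17 alternatives (0.06 to 0.79), nor was LPL (-0.98 to -0.61). Genes with under 20 reads per library, such as KLF15 in horse J and CD36 in D and J, are limited by depth. Nothing states that the 2 cultures of a horse were repeated. With the horse as a block, p values set the mean change against its spread over these 4 horses. That spread also holds culture and library error.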
